A study of Mus musculus with 72 samples.

Results

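The Hox genes encode homeodomain transcription factors that give cells of the embryo their position along the head to tail axis. They lie in clusters in the order in which they are used: the genes of low number, at the 3′ end of a cluster, act in the head and neck, and the genes of high number, at the 5′ end, act in the lumbar region, limbs and tail. Fibroblasts keep part of this positional code in culture, with acetylated chromatin over the genes they use, whereas in embryonic stem cells (ESCs) the clusters are largely kept silent by Polycomb proteins, which place H3K27me3.

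The members were the Hox genes named by a list of symbols, each taken as its gene body with 5 kb added on both sides, in GENCODE vM1 on the mouse build mm9. The list gave 39 gene records for 38 symbols, because Hoxa3 has 2 overlapping records, out of 22380 protein-coding gene windows in all. There were 11 records in HoxA (chr6:52107350-52215874), 10 in HoxB (chr11:96050630-96234570), 9 in HoxC (chr15:102746534-102872274) and 9 in HoxD (chr2:74501367-74608200). Genes that sit close together share DNA, since 35 of the 39 windows overlapped another member's window, so a peak can count for several genes and the windows are not independent. Taken once, the windows covered 107.0 kb of HoxA, 119.3 kb of HoxB, 119.9 kb of HoxC and 102.1 kb of HoxD.

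The study asked how loss of HMGN1 and HMGN2, small proteins that bind nucleosomes and lie at H3K27ac-marked chromatin, affects histone modifications and the binding of transcription factors. Chromatin immunoprecipitation with sequencing (ChIP-seq) was performed in C57BL/6 mouse embryonic fibroblasts (MEFs), ES cell lines and resting splenic B cells that were either wild type (WT, Hmgn1+/+n2+/+) or double knock-out (DKO, Hmgn1-/- n2-/-). The 7 antibodies compared here were H3K27ac, H3K27me3, Brd3 and p300 in MEFs and CTCF, OCT4 and NANOG in ESCs, with 2 WT and 2 DKO libraries each, described as biological replicates. The sources used here do not give the number of embryos or of ES clones behind the replicates.

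The deposited data were peak lists called by the authors in each library, with no read counts, so the length of DNA covered by peaks and the fold enrichment at the peak summits were the measures. H3K27ac lists held 76968 to 84850 peaks, CTCF lists 62069 to 64634 and NANOG lists 52307 to 64486. The Brd3 lists held 31404 and 33072 peaks in WT against 8970 and 11549 in DKO, and the OCT4 lists 11140 and 12627 in WT against 26742 and 30864 in DKO. H3K27me3 lists were small, with 553 and 388 peaks in WT and 213 and 117 in DKO, and p300 lists held 2974 to 7323. Over all gene windows tested, the median log2 change from WT to DKO was -0.05 for H3K27ac, -1.002 for H3K27me3, -1.82 for Brd3, -0.78 for p300, 0.08 for CTCF, 1.37 for OCT4 and 0.39 for NANOG, and the members are described against these shifts.

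H3K27ac peaks in MEFs lay at 11 of 11 fibroblast marker genes in every library, and none was found at Pou5f1, Sox2, Zfp42, Dppa3 or Dppa5a of the ESC markers, at Cd22, Cd79b, Ms4a1 or Pax5 of the B cell markers, or at Ptprc. Summed over the lists, peaks covered 162.2 to 178.6 kb of the fibroblast markers, 2.57 to 3.61 kb of the 9 ESC markers found (3 or 4 of 9 with a peak), 16.4 to 16.9 kb of the B cell markers (2 or 3 of 8) and 0.713 to 1.68 kb of the endothelial and blood markers (2 or 3 of 4). In ESCs, NANOG peaks lay at 9 of 9 ESC markers in each library and OCT4 peaks at 8 or 9 of 9. Over Hmgn2 the H3K27ac lists held 3 and 3 peaks in WT and 0 and 0 in DKO, and over Hmgn1 2 and 2 in WT and 4 and 5 in DKO, but peaks check a deletion only where they lie in the deleted part, which the sources used here do not give.

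In WT MEFs, H3K27ac covered most of the 3′ and central part of 3 clusters. Peaks covered 62.7% of HoxA, 55.0% of HoxB and 48.7% of HoxC, but 2.93% of HoxD. No H3K27ac peak was found in any library over 11 of the 39 windows, namely Hoxa13, Hoxb1, Hoxb13, Hoxc12, Hoxc13, Hoxd1, Hoxd4 and Hoxd10 to Hoxd13. The genes of the tail and digits were therefore without a called peak in these fibroblasts, as was Hoxb1, a hindbrain gene.

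The total H3K27ac coverage differed between genotypes in a different way in each cluster. HoxC was covered over 58.5 and 58.3 kb in the WT libraries and 45.0 and 46.6 kb in the DKO libraries, a DKO mean of 78.4% of WT. HoxA was covered over 67.8 and 66.3 kb in WT and 59.9 and 58.6 kb in DKO (88.3%). Both clusters were lower in both DKO libraries than in either WT library.

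HoxB was covered over 66.8 and 64.5 kb in WT and 67.6 and 69.7 kb in DKO (104.6%), and HoxD over 2.92 and 3.07 kb in WT and 4.49 and 4.87 kb in DKO (156.2%), so that both DKO libraries lay above both WT libraries there. With 2 libraries a genotype an exact permutation test cannot give a p below 0.33, which was the two-sided value for each of the 4 clusters.

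The lower coverage of HoxA and HoxC lay mainly at their 5′ end. From the start of Hoxc9 towards the 5′ end of HoxC, H3K27ac covered 12.04 and 12.14 kb in WT and 3.32 and 4.41 kb in DKO, while the rest of the cluster was covered over 46.5 and 46.2 kb in WT and 41.7 and 42.2 kb in DKO. From the start of Hoxa9 towards the 5′ end of HoxA, it covered 8.33 and 6.43 kb in WT and 2.56 and 2.48 kb in DKO, against 59.5 and 59.9 kb and 57.3 and 56.1 kb over the rest. The stretch of HoxB beyond the start of Hoxb9 was covered over 11.2 and 11.1 kb in WT and 10.5 and 10.2 kb in DKO. The peaks counted there reached 21.07 to 21.11 kb from that start, past the 5 kb flank. Part of this HoxB coverage thus lay outside the member windows, unlike in HoxA and HoxC. The start of the group 9 gene was chosen as the dividing point with the map of peaks known.

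**Figure D1:**
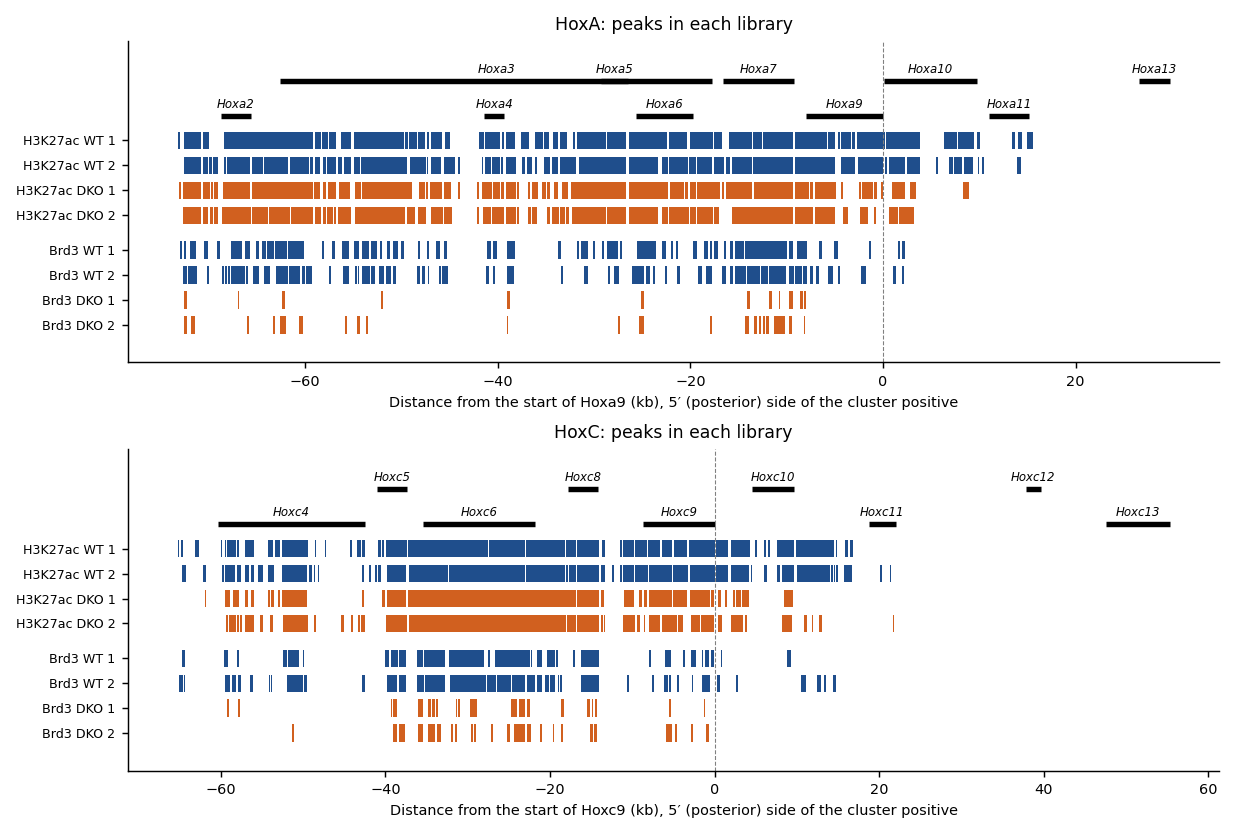
H3K27ac and Brd3 peaks of each MEF library along HoxA (top) and HoxC (bottom), as bars against the distance in kb from the start of Hoxa9 or Hoxc9 (dashed line), with WT in blue, DKO in orange and gene bodies in black (for Hoxa3 the shorter record). To the right of the dashed line H3K27ac covered 12.04 and 12.14 kb of HoxC in WT but 3.32 and 4.41 kb in DKO, and Brd3 peaks were absent there from both DKO libraries in both clusters.

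Gene by gene, H3K27ac fell at 5 of the 28 windows with a peak in at least 2 libraries and rose at none, by limma on log2 coverage with Benjamini-Hochberg adjustment over all 13807 windows tested, where 3.33% of windows were called lower and 2.09% higher. The median log2 change was -0.03 over the members and -0.05 over all windows. An unadjusted p under 0.05 was found for 10 members. All 5 that fell belonged to groups 9 to 11 of HoxA and HoxC: of the 8 windows tested in groups 9 to 13, 5 fell (6 at an unadjusted p under 0.05), and of the 20 tested in groups 1 to 8, 0 did (4 at an unadjusted p under 0.05, the same limma fit). Whether the 2 sets of groups differ was not tested, and the split was drawn with these values known.

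Hoxc10 (ENSMUSG00000022484.7, chr15:102797227-102802324, plus strand), a gene of the lumbar spinal cord and hindlimb, had 11563 and 11042 bp covered in WT and 3695 and 4681 bp in DKO. The DKO mean was 37.1% of WT (log2 change -1.42, SE 0.12, adjusted p = 0.0145 by limma). Its paralogue Hoxa10 (ENSMUSG00000000938.9, chr6:52181196-52190853, minus strand), which patterns the lumbar region and the reproductive tract, had 11909 and 10558 bp in WT and 4575 and 4039 bp in DKO (38.3%, log2 change -1.36, SE 0.10, adjusted p = 0.0139). At both genes the genotypes were apart by far more than their replicates were.

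The window of Hoxc11 (chr15:102784858-102788139), next to Hoxc10 on its 5′ side and used in the sacral region and hindlimb, held 1680 and 2256 bp in WT and 0 and 170 bp in DKO (log2 change -3.64, SE 0.51, adjusted p = 0.0304), a value that depends on the 100 bp added before the logarithm. Hoxa11, a gene of the forearm and kidney, ran the same way, with 4625 and 2941 bp in WT and 555 and 0 bp in DKO, but did not pass the test (adjusted p = 0.0725). Both sites of the Hoxc11 window called in both WT and in neither DKO library lay outside the gene (chr15:102790042-102791074 and chr15:102791855-102792157), and within the gene each peak was called in 1 library, with none in WT replicate 1.

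The group 9 genes kept most of their coverage. Hoxa9 had 15629 and 15252 bp in WT and 11437 and 11759 bp in DKO (75.1%, log2 change -0.41, SE 0.06, adjusted p = 0.0307). Hoxc9 had 14872 and 15203 bp in WT and 11879 and 11007 bp in DKO (76.1%, log2 change -0.39, SE 0.07, adjusted p = 0.04). In windows with 5 kb flanks, the drop was thus smaller at group 9 than at groups 10 and 11 of the same clusters, a difference that was not tested.

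Among the genes closer to the 3′ end, Hoxc4 was lower in both DKO libraries without a call, with 12680 and 12161 bp in WT and 8819 and 10159 bp in DKO (adjusted p = 0.0725). At Hoxc6, Hoxa5 and Hoxb9 the genotypes overlapped. Hoxc6 had 22883 and 22162 bp in WT and 22882 and 22725 bp in DKO, and Hoxa5, which acts in the lung, 11107 and 11467 bp in WT and 11428 and 11340 bp in DKO. Hoxb9, the HoxB counterpart of Hoxa9 and Hoxc9, had 7019 and 7228 bp in WT and 6934 and 7210 bp in DKO. Hoxb3 had 24329 and 22522 bp in WT and 25738 and 27008 bp in DKO (log2 change 0.17, adjusted p = 0.198), without overlap and without a call. In HoxD, Hoxd8 had 1404 and 1422 bp in WT and 2285 and 2039 bp in DKO (log2 change 0.58, adjusted p = 0.0712), and Hoxd3 had 2361 and 2577 bp in WT and 3291 and 4103 bp in DKO (0.56, adjusted p = 0.088). Both DKO libraries lay above both WT libraries at these HoxD genes, without passing the test.

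**Figure D2:**
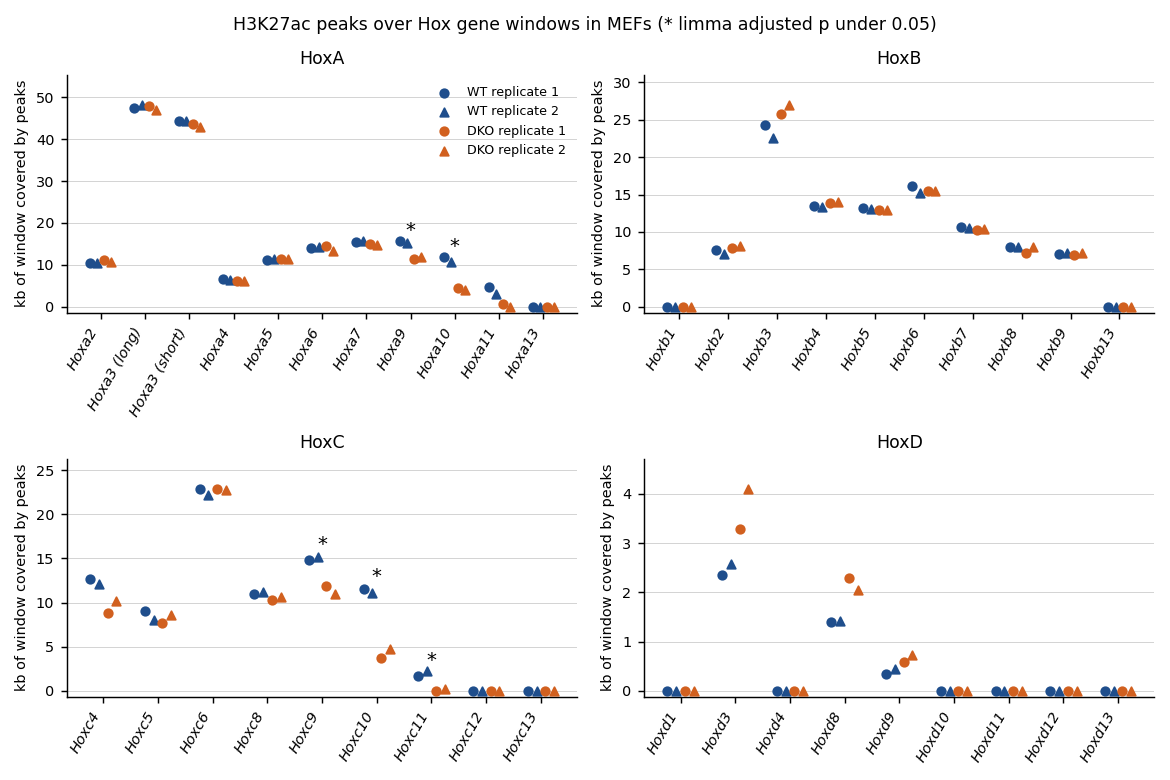
Length of each Hox window covered by H3K27ac peaks in MEFs (kb), per library, in the order from the 3′ to the 5′ end of each cluster, with WT in blue and DKO in orange, replicate 1 as circles and replicate 2 as triangles, and stars for a limma adjusted p under 0.05. The stars fall on Hoxa9, Hoxa10, Hoxc9, Hoxc10 and Hoxc11, and the vertical scale differs between panels.

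These calls rest on 2 libraries a genotype. With 1 kb flanks Hoxc11 (log2 change -0.38) and Hoxc9 (-0.30) lost their call, so that the larger fall of the Hoxc11 window lay in its outer flanks, and with the replicate number as a block Hoxa9 and Hoxc9 did. Without either WT library 2 of the 5 remained called (Hoxa10 and Hoxc10), Hoxa9 and Hoxc9 lost their call when any 1 of the 4 libraries was left out, and by the number of peaks in place of the covered length 0 members were called and Hoxa9 (log2 change 0.19) and Hoxc9 (0.27) changed direction. With each library centred on its median, 4 members were lower and 1, Hoxb3, was higher (log2 change 0.23, adjusted p = 0.0397), while Hoxc9 lost its call (log2 change -0.33, adjusted p = 0.0602). The background was 1.77 and 1.87 reads per position in DKO and 1.65 and 1.44 in WT, and with all libraries thinned to the lowest background 5 members were lower. Beyond this thinning, the part of depth in the calls was not tested. In a bulk library, fewer cells that carry a mark and less of the mark in each cell cannot be told apart.

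Peak by peak, 131 H3K27ac sites lay in the member windows, of which 71 were called in all 4 libraries. Fold enrichment at these shared sites, which is the pileup at the summit over the local background, was lower in DKO at 5 sites and higher at 1, with 5.60% of all 42234 shared sites lower and 2.79% higher. The median log2 change was -0.16 over the Hox sites and -0.08 over all sites. Another 11 sites were WT-only, called in both WT and in neither DKO library, and 4 were DKO-only, against 5.83% and 4.40% of all 104443 sites. With summits within 250 bp they became 17 and 13. The WT-only sites became 27 without WT replicate 1 and 23 without WT replicate 2, and the DKO-only sites became 8 without DKO replicate 1. HoxC held 8 of the 11 WT-only sites and 4 of the 5 lower sites.

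The lower sites included the start of Hoxc9 (chr15:102806831-102809962, in its intron), with a fold enrichment of 18.2 and 17.3 in WT and 8.65 and 8.54 in DKO (log2 change -1.05, SE 0.21, adjusted p = 0.00336 by limma). The site around the start of Hoxc6 (chr15:102824966-102844118) was the strongest of HoxC and the widest, at 19153 bp. It reached 35.4 and 44.2 in WT and 31.2 and 21.7 in DKO (log2 change -0.60, adjusted p = 0.0224), although the covered length of Hoxc6 did not differ. The strongest H3K27ac sites of HoxA (chr6:52160944-52163503, by a start of Hoxa3, 17.5 and 17.5 in WT, 18.9 and 23.3 in DKO) and of HoxB (chr11:96213166-96216831, within Hoxb2, 31.7 and 24.7 in WT, 31.1 and 33.4 in DKO) did not pass the test (adjusted p = 0.409 and 0.459). Leaving out DKO replicate 2 reduced the sites past the threshold from 6 to 3.

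The WT-only sites with the strongest calls were in the coding exon of Hoxa11 (chr6:52195021-52195504, fold enrichment of 6.95 and 7.65), 5229 bp upstream of Hoxc10 (chr15:102791855-102792157, 6.29 and 7.99) and in the intron of Hoxc10 (chr15:102798848-102799333, 6.60 and 6.14). All 4 DKO-only sites lay in Hoxa3 introns or around Hoxd3. One of these, chr2:74554138-74554556 in the Hoxd3 intron (4.99 and 5.60), lies beside the only Hox site called higher in DKO, chr2:74553551-74553928, with 4.82 and 4.19 in WT and 8.15 and 8.03 in DKO (log2 change 0.85, adjusted p = 0.0405).

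Brd3 is a bromodomain protein that binds acetylated histones and promotes transcription. With the peaks of all 4 libraries merged, 171 of 173 Brd3 sites in the Hox windows overlapped an H3K27ac site by at least 1 bp. The count was not set against all Brd3 sites, and WT H3K27ac peaks covered 62.7% of HoxA, 55.0% of HoxB and 48.7% of HoxC. Over the 4 clusters Brd3 peaks covered 88.9 and 90.5 kb in WT and 15.2 and 24.8 kb in DKO, a DKO mean of 22.3% of WT. HoxA went from 31.4 and 29.2 kb to 3.23 and 7.02 kb, HoxB from 30.8 and 29.8 kb to 5.03 and 8.15 kb, HoxC from 25.5 and 29.3 kb to 6.89 and 9.64 kb, and HoxD from 1.24 and 2.23 kb to 0 and 0 kb. Each cluster was lower in both DKO libraries, and HoxC kept the largest share (30.2%).

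Coverage fell at 25 of 27 windows tested and rose at none, which is to be read against 61.2% of all 10846 windows called lower (limma adjusted p). By the number of peaks in place of the covered length, 9 member windows were called lower. The median log2 change of the members was -2.49 and that of all windows -1.82. In 6 of the 27 windows no DKO library had a peak, so that these changes and the median depend on the 100 bp added before the logarithm. The 2 windows not called were Hoxb2 (4824 and 3807 bp in WT, 1165 and 2863 bp in DKO) and Hoxc9 (3231 and 3085 bp in WT, 387 and 1480 bp in DKO).

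Of the windows with DKO peaks left, Hoxb6 had 6814 and 6680 bp in WT and 195 and 823 bp in DKO (7.54%, adjusted p = 0.0166), Hoxb5 had 6895 and 6919 bp in WT and 293 and 943 bp in DKO (8.95%, adjusted p = 0.0142) and Hoxa6 had 7391 and 5548 bp in WT and 334 and 812 bp in DKO (8.86%, adjusted p = 0.00989). These genes pattern the neck and thorax, and their H3K27ac coverage did not pass the test: Hoxb6 had 16089 and 15169 bp of H3K27ac in WT and 15491 and 15486 bp in DKO. Among the windows past the threshold the smallest falls were at Hoxc5, with 5389 and 5646 bp in WT and 1950 and 3191 bp in DKO (46.6%, adjusted p = 0.041), and Hoxb8, with 4167 and 4137 bp in WT and 1606 and 1669 bp in DKO (39.4%, adjusted p = 0.00574).

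Some windows of HoxA, HoxC and HoxD held no Brd3 peak in DKO. Hoxa10 had 938 and 1344 bp in WT, Hoxc10 954 and 2051 bp, Hoxd3 912 and 1604 bp and Hoxd8 645 and 1306 bp, and all 4 were listed at 0 in both DKO libraries (adjusted p from 0.00411 at Hoxa10 to 0.00854 at Hoxd8).

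**Figure D3:**
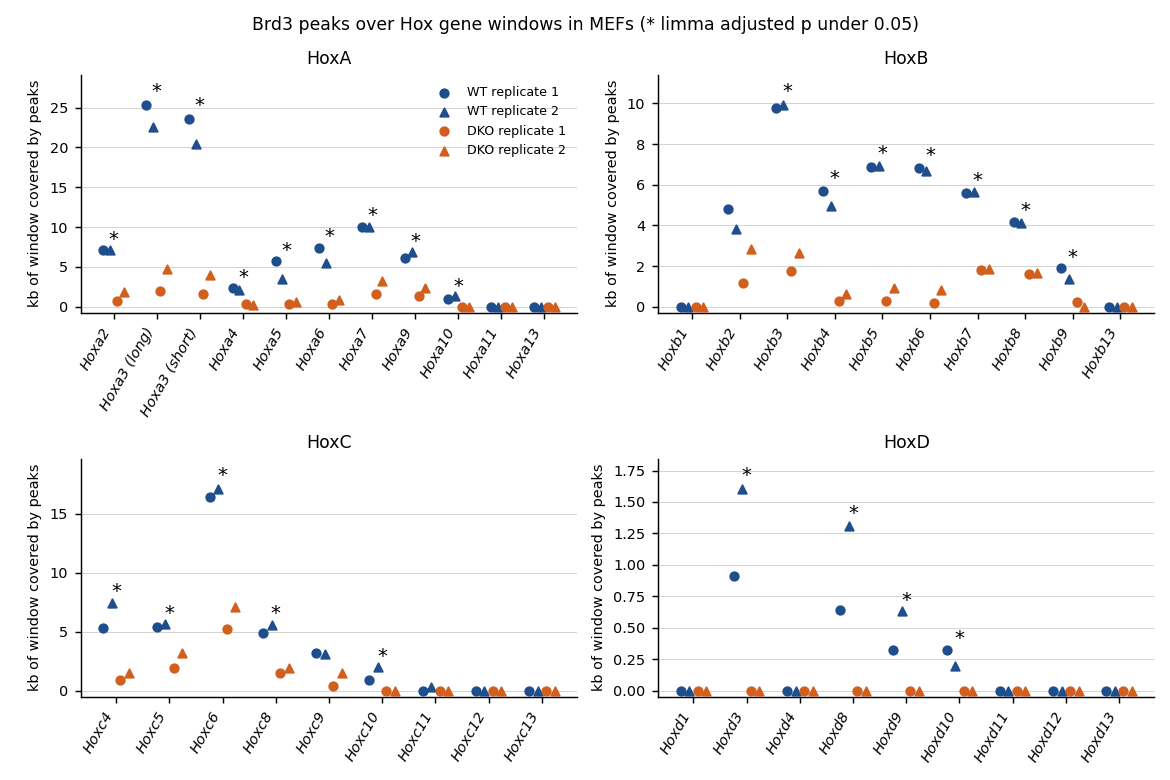
Length of each Hox window covered by Brd3 peaks in MEFs (kb), per library, in the order from the 3′ to the 5′ end of each cluster, with WT in blue and DKO in orange, replicate 1 as circles and replicate 2 as triangles, and stars for a limma adjusted p under 0.05. The stars mark 25 windows, in all of which both DKO points lie below both WT points, and the vertical scale differs between panels.

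The DKO libraries were also the shallower Brd3 libraries, and the part of depth in the result was tested only by thinning. Background reads per position were 1.75 and 1.89 in WT and 1.24 and 1.54 in DKO, and thinned to the lowest background 24 members were lower. Once each library was centred on its median, 0 of 27 members were called by limma (17 had an unadjusted p under 0.05), and 6 windows, among them Hoxb7, Hoxb8, Hoxc5, Hoxc6 and Hoxc8, lay above the median change. Without either WT library 0 were called, so both WT libraries were needed for the calls.

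At the peak level 24 Brd3 sites were called in all 4 libraries, and fold enrichment was lower at 4, beside 20.6% of all 5422 shared sites. Of the 173 sites 40 were WT-only, beside 27% of all 39745 sites, and 0 were DKO-only. The WT-only sites became 0 with the same number of top peaks from each library, and 97 without WT replicate 1, 97 without WT replicate 2 and 63 without DKO replicate 2. Leaving out WT replicate 1, DKO replicate 1 or DKO replicate 2 changed the 4 lower sites to 2, 1 and 1. The strongest site of HoxC, around the start of Hoxc6 (chr15:102828651-102834495), had a fold enrichment of 13.4 and 9.19 in WT and 7.81 and 9.40 in DKO (adjusted p = 0.289). That of HoxA, over Hoxa7 (chr6:52166691-52171135), had 6.92 and 9.60 in WT and 5.40 and 8.29 in DKO (adjusted p = 0.472), and at both sites the replicates of the 2 genotypes overlapped. That of HoxB, in the Hoxb3 intron (chr11:96202729-96204312), had 11.6 and 10.8 in WT and 7.38 and 7.24 in DKO (log2 change -0.61, SE 0.23, adjusted p = 0.0663), without overlap but also without passing the test. The strongest of HoxD was WT-only and is given next. WT-only sites with the strongest calls lay 5′ of Hoxb4 (chr11:96175840-96176989, 7.66 and 6.44), at Hoxb8 (chr11:96144261-96144701, 7.50 and 5.70) and in the Hoxd3 intron (chr2:74549734-74550605, 6.13 and 7.32).

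The acetyltransferase p300, which places H3K27ac at enhancers, had 3 and 2 peaks in WT and 1 and 1 in DKO over all 4 clusters, with none in HoxC or HoxD. With the same number of top peaks taken from each library the direction of their covered length turned (log2 change of the total 1.55). One of 4 sites was called in every library, in a Hoxa3 intron (chr6:52135214-52135577), with a fold enrichment of 4.97 and 4.72 in WT and 6.05 and 6.25 in DKO (log2 change 0.34, SE 0.25, adjusted p = 0.41). Of 3 windows tested 0 passed in either direction, with 0 at an unadjusted p under 0.05 by limma, while 21.6% of all 1667 windows were lower. The few p300 peaks all overlapped H3K27ac sites (4 of 4), a count not set against all p300 sites.

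H3K27me3 peaks lay at the 5′ genes. The lists held 12 and 8 peaks in WT and 8 and 2 in DKO over the 4 clusters, all at groups 9 to 13, and 0 of the 23 windows of groups 1 to 8 had a peak. With the same number of top peaks from each library the total covered length was higher in DKO (log2 change 0.83). The windows of Hoxa13, Hoxb13, Hoxc12, Hoxc13 and Hoxd10 to Hoxd13 had an H3K27me3 peak in at least 1 library and no H3K27ac peak in any. Of these, Hoxc13 and Hoxd13 had theirs in WT replicate 1 alone. Hoxa9, Hoxa10, Hoxa11 and Hoxd9 had H3K27ac peaks and an H3K27me3 peak in 1 library each. Hoxa13, a gene of the digits and genital tubercle, had 871 and 336 bp in WT and 152 and 145 bp in DKO (log2 change -1.39, SE 0.54, adjusted p = 0.187 by limma). Hoxd11 had 465 and 659 bp in WT and 835 and 175 bp in DKO, so the groups overlapped there.

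Of 22 H3K27me3 sites, 17 were called in 1 library alone and 1 in all 4, at chr2:74517724-74518081 upstream of Hoxd11, with a fold enrichment of 4.65 and 4.30 in WT and 5.12 and 7.18 in DKO. By limma 0 of 6 windows tested passed the threshold and 0 had an unadjusted p under 0.05, with 24.9% of all 253 windows lower. A narrow peak caller finds little of a broad mark, and a window without a peak does not show that the mark is missing. The background was 1.196 and 1.144 reads per position in WT and 1.164 and 1.039 in DKO, and the 3′ genes of the clusters held no called peak of H3K27me3 in any library.

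**Figure D4:**
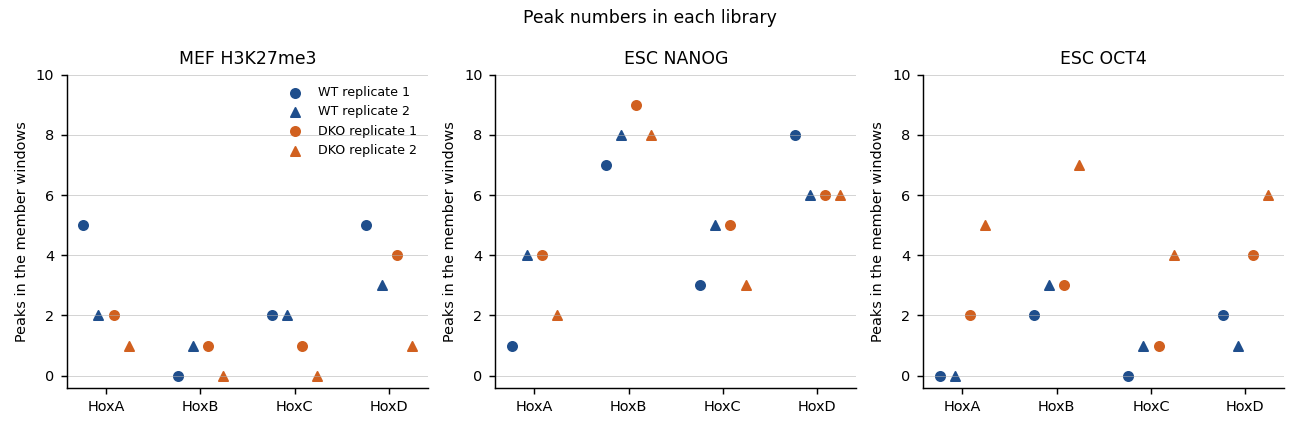
Number of H3K27me3, NANOG and OCT4 peaks in the member windows of each cluster, per library, with WT in blue and DKO in orange, replicate 1 as circles and replicate 2 as triangles. OCT4 counted 4 and 5 peaks over the 4 clusters in WT and 10 and 22 in DKO, with DKO replicate 2 the highest point in every cluster, whereas NANOG points of the 2 genotypes overlapped.

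In ESCs, CTCF, a zinc finger protein that holds chromatin loops and separates domains, had the most regular pattern of the factors. The member windows held 30 and 28 peaks in WT and 28 and 29 in DKO, in 31 sites, of which 26 were called in all 4 libraries. No site was WT-only or DKO-only, with 1.31% and 2.89% of all 70857 sites. By coverage 0 of 30 windows passed the limma test and 2 had an unadjusted p under 0.05, beside 0.462% of all 15167 windows lower and 1.52% higher. Fold enrichment at the shared sites moved in both directions, lower at 9 and higher at 7 of 26, against 22.5% lower and 24.7% higher of all 56473 shared sites. Of the 5 other sites, 1 was called in WT replicate 1 alone and 1 in DKO replicate 2 alone.

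The strongest CTCF site of HoxB lay between Hoxb9 and Hoxb8 (chr11:96140070-96140545, 2950 bp upstream of Hoxb8), with a fold enrichment of 42.4 and 42.6 in WT and 21.9 and 20.7 in DKO (log2 change -0.99, SE 0.08, adjusted p = 0.000244 by limma). Its −log10 q was 171.95 and 171.88 in WT and 149.38 and 155.78 in DKO. In HoxD the strongest site, in the Hoxd3 intron (chr2:74553769-74554466), went the other way, from 27.9 and 19.0 in WT to 56.2 and 55.4 in DKO (log2 change 1.28, SE 0.17, adjusted p = 0.00106). The strongest of HoxC, 212 bp upstream of Hoxc10 (chr15:102796826-102797173), had 42.2 and 45.3 in WT and 55.5 and 54.3 in DKO (0.33, SE 0.07, adjusted p = 0.00744). That of HoxA, at the start of Hoxa7 (chr6:52171457-52172230), had 27.5 and 29.1 in WT and 35.4 and 36.4 in DKO (0.35, SE 0.08, adjusted p = 0.0122).

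Neighbouring sites could move in opposite directions. A pair of HoxC sites picked after their values were seen shows this: in the coding exon of Hoxc10 (chr15:102801249-102801475) CTCF went from 19.2 and 17.0 in WT to 7.18 and 8.56 in DKO (log2 change -1.20, SE 0.16, adjusted p = 0.00122), and 3036 bp upstream of Hoxc8 (chr15:102817852-102818245) from 15.0 and 14.6 to 34.7 and 31.0 (1.147, SE 0.11, adjusted p = 0.000323). The replicates of each genotype lay close together at both sites.

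The core of the CTCF motif, 12 bases sought on either strand in the 50 bp on each side of the summit with at most 1 mismatch, was found at 8 of 31 Hox sites (25.8%) and at 51.1% of all 70857 sites in windows of the same 101 bases. Among sites called in all libraries it was found at 8 of 26 Hox sites (30.8%) and at 57.4% of 56473. Each of the 8 cores carried 1 mismatch, so none matched the sought motif exactly. Of the 8 cores, 0 in HoxA lay on the plus strand and 3 on the minus strand, HoxB and HoxD had 1 on each strand and HoxC 1 on the minus strand. The strongest site with a core in each cluster is printed 5′ to 3′ on the strand of the motif, with the core in capitals, to show the sequence under the CTCF peaks. In HoxA and HoxB these are the strongest sites described above, and in HoxC and HoxD they are other sites, since no core was found within the 101 bases of the strongest there. The mm9 positions are chr6:52171800-52171827 (minus strand, in the 5′ region of Hoxa7 and kept short), chr11:96140227-96140307 (plus), chr15:102773854-102773934 (minus, 6685 bp from the start of Hoxc12) and chr2:74540417-74540497 (plus, 2228 bp upstream of Hoxd8).
HoxA, start of Hoxa7: agaaaattCCAGGAGATGGCagtgtggc
HoxB, between Hoxb9 and Hoxb8: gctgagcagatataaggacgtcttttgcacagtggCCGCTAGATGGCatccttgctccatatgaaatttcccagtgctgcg
HoxC, between Hoxc12 and Hoxc11: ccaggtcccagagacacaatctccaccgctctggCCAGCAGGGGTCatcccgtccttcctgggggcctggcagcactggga
HoxD, upstream of Hoxd8: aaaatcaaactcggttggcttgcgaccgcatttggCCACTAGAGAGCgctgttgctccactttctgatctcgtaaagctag

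The HoxD site with this sequence (chr2:74540121-74540647) was lower in DKO, with a fold enrichment of 34.2 and 30.7 in WT and 23.5 and 13.5 in DKO (log2 change -0.87, SE 0.24, adjusted p = 0.0218). The HoxC site (chr15:102773634-102774043) had 20.6 and 18.7 in WT and 20.8 and 20.8 in DKO (0.09, SE 0.11, adjusted p = 0.55). Sites with a core therefore included one that rose (Hoxa7), some that fell and one that did not pass the test.

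**Figure D5:**
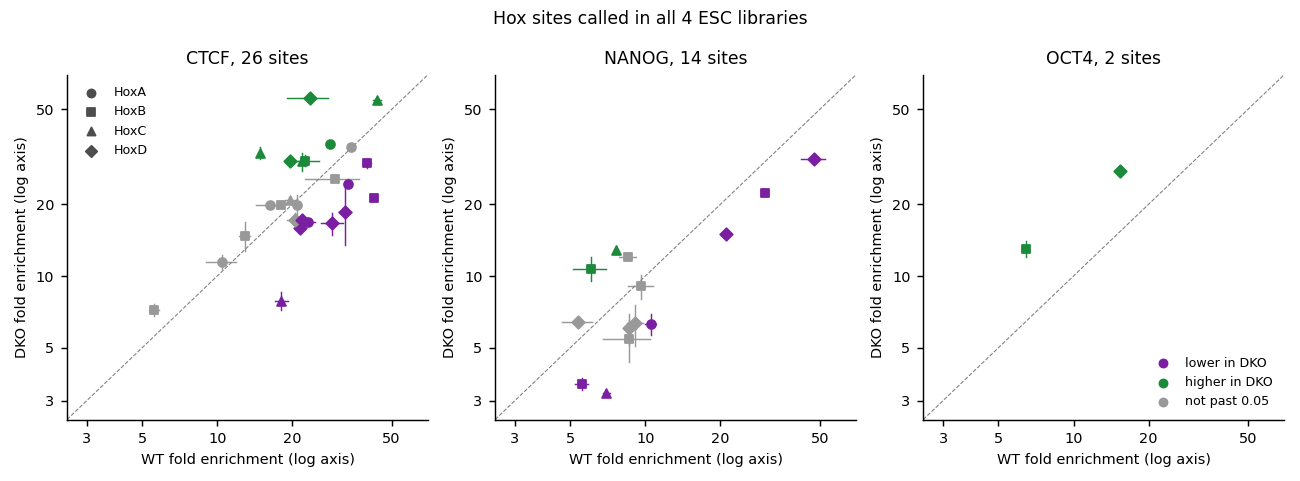
Fold enrichment in DKO against WT at the Hox sites called in all 4 ESC libraries, for CTCF (26 sites), NANOG (14) and OCT4 (2), on log axes, with symbols at the genotype means, lines to the 2 replicates, a shape for each cluster and colours for sites lower or higher in DKO by limma (adjusted p under 0.05). CTCF points lie on both sides of the diagonal, 9 called lower and 7 higher, the strongest NANOG points lie below it, and both OCT4 points lie above it.

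NANOG and OCT4 are factors of the pluripotent state, in which Hox genes are silent or poised. NANOG had 19 and 23 peaks in WT and 24 and 19 in DKO over the 4 clusters, at 34 sites, 14 of them called in all 4 libraries. Shared sites were lower at 6 and higher at 2, with 14.1% of all 39762 shared sites lower and 15.7% higher, and 0 sites were WT-only or DKO-only, with 2.19% and 9.44% of all 79921. By coverage 0 of 21 windows passed the limma test and 0 had an unadjusted p under 0.05, beside 0.767% of all 13688 windows lower and 17.7% higher. The calls at shared sites depended on single libraries, since the 8 sites became 5 without WT replicate 1, 2 without DKO replicate 1 and 4 without DKO replicate 2.

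The strongest NANOG site of the clusters lay in the Hoxd3 intron (chr2:74551437-74551987), with a fold enrichment of 52.6 and 42.2 in WT and 31.2 and 30.5 in DKO (log2 change -0.61, SE 0.13, adjusted p = 0.00314). The strongest of HoxB, 3905 bp upstream of Hoxb13 (chr11:96051459-96051953), had 30.8 and 29.3 in WT and 22.9 and 21.7 in DKO (-0.43, SE 0.13, adjusted p = 0.0261), and that of HoxA, in the Hoxa11 intron (chr6:52193675-52194241), had 10.01 and 11.06 in WT and 5.66 and 6.91 in DKO (-0.75, SE 0.23, adjusted p = 0.0249). The strongest of HoxC, upstream of Hoxc12 (chr15:102761978-102762559), was higher, from 7.60 and 7.69 to 13.4 and 12.4 (0.75, SE 0.21, adjusted p = 0.0147). At these 4 sites the genotypes did not overlap.

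OCT4 had few Hox peaks in WT and more in DKO, 4 and 5 against 10 and 22, covering 1.39 and 1.23 kb in WT and 3.20 and 7.16 kb in DKO. With the same number of top peaks taken from each library this direction turned (log2 change of the total -0.19) and 0 DKO-only sites were left. Of 23 sites, 5 were DKO-only, beside 28.8% of all 35163 sites, 11 were called in DKO replicate 2 alone, 2 in all 4 libraries and 0 were WT-only. Both shared sites were higher in DKO, as were 85.6% of all 9434 shared sites. Coverage was higher in DKO at 9 of 18 windows tested by limma, beside 57.5% of all 7803 windows, with a median log2 change of 1.69 over the members and 1.37 over all windows. Neither share was tested against that of the genome. In 8 of the 18 windows no WT library had a peak, so that the median of the members depends on the 100 bp added before the logarithm.

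The 9 windows were both Hoxa3 records, Hoxa5, Hoxa6, Hoxa10, Hoxa11, Hoxc12, Hoxc13 and Hoxd12, and in 8 of them the WT lists held no peak, so no fold is given. They trace back to few peaks. The site at the start of Hoxa5 (chr6:52154171-52154495) was not called in WT and had a fold enrichment of 4.80 and 5.36 in DKO, and it counts for Hoxa3, Hoxa5 and Hoxa6. The site in the UTR of Hoxa11 (chr6:52193093-52193479) had 10.2 and 11.8 in DKO and counts for the windows of Hoxa10 and Hoxa11. The site upstream of Hoxc12 (chr15:102763393-102763807), with 8.85 and 8.38 in DKO, serves Hoxc12 and Hoxc13, which acts in hair.

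Hoxd12 had 489 and 311 bp of OCT4 peaks in WT and 1014 and 1196 bp in DKO (log2 change 1.29, SE 0.24, adjusted p = 0.0224). Its strongest site, 2236 bp upstream (chr2:74510530-74510915), rose from 14.9 and 15.8 in WT to 28.0 and 27.3 in DKO (log2 change 0.85, SE 0.17, adjusted p = 4.08e-06). Without either DKO library 0 windows were called, with centred libraries Hoxd12 lost its call (log2 change 0.397, adjusted p = 0.288), 8 members were higher and Hoxd13 was lower (log2 change -0.75, adjusted p = 0.0475), and both shared sites lost their call. The background was 0.924 and 1.30 reads per position in WT and 1.03 and 1.43 in DKO, and thinned to the lowest background 9 windows were higher.

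OCT4 and NANOG lay on the same DNA at 6 places, which are 26.1% of the OCT4 and 17.6% of the NANOG sites. Upstream of Hoxd12, where OCT4 rose, NANOG fell from 21.7 and 20.3 in WT to 14.3 and 15.8 in DKO (log2 change -0.48, SE 0.16, adjusted p = 0.0345). Upstream of Hoxb13, OCT4 rose from 6.39 and 6.52 to 11.96 and 14.0 (log2 change 1.004, SE 0.22, adjusted p = 1.42e-05) and NANOG fell, as given above. The fold enrichment of the 2 factors thus moved in opposite directions at the 2 sites where all 8 lists had a peak. The OCT4 changes lay near the median of all shared OCT4 sites (log2 change 0.93), and their calls were lost on centring as given above. Upstream of Hoxb13 the −log10 q of NANOG did not fall with its fold enrichment, with 131.57 and 121.9 in WT and 147.11 and 127.66 in DKO.

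At Hoxb1, one of the first Hox genes used in the hindbrain, the fold enrichment of both factors at 1 site was higher in the DKO libraries, while the length covered by NANOG peaks in its window overlapped between the genotypes (476 and 462 bp in WT, 487 and 440 bp in DKO). The OCT4 site, which was not tested because it was not called in all 4 libraries, lay 188 bp upstream of its start (chr11:96226669-96227061), with no peak in WT replicate 1, 7.50 in WT replicate 2 and 17.2 and 21.0 in DKO. NANOG there went from 6.97 and 5.12 in WT to 11.98 and 9.52 in DKO (log2 change 0.84, SE 0.25, adjusted p = 0.0208). The octamer ATGCAAAT, sought on either strand in the same 101 bases, was found at 3 of 23 Hox OCT4 sites and 10.6% of all 35163 OCT4 sites, and at 1 of 34 Hox NANOG sites (2.94%) and 2.94% of all 79921. It was in neither of the 2 strongest sites, the OCT4 and NANOG site upstream of Hoxd12 (chr2:74510710-74510790) and the NANOG site in the Hoxd3 intron (chr2:74551756-74551836), whose summits are printed on the plus strand with no part in capitals.
Upstream of Hoxd12: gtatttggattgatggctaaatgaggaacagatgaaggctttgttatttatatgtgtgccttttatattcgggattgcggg
Hoxd3 intron: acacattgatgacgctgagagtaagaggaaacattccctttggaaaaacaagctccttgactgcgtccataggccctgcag

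Genes that control or work with the Hox genes were taken from lists chosen with earlier results known. The counts for H3K27ac stand beside the 3.33% of all windows lower and 2.09% higher, and nothing particular to the lists is read from them. Of 17 Polycomb genes tested for H3K27ac, 1 fell, Cbx7, a subunit that reads H3K27me3, with 2083 and 1728 bp in WT and 612 and 797 bp in DKO (log2 change -1.32, adjusted p = 0.0329), and 0 rose. Of 7 genes of the Trithorax group, which keeps Hox genes active, 0 passed the limma test and 0 had an unadjusted p under 0.05.

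Of 4 upstream regulators and ParaHox genes tested 1 fell, Rarb, a retinoic acid receptor, with 4074 and 4089 bp in WT and 2088 and 2399 bp in DKO (-0.84, adjusted p = 0.026). Of 11 neighbours of the clusters 1 rose, Skap1 next to HoxB, with 13533 and 12578 bp in WT and 16489 and 16506 bp in DKO (0.34, adjusted p = 0.0493). For Brd3, 10 of 16 Polycomb, 4 of 7 Trithorax, 8 of 9 cofactor, 3 of 3 upstream and 5 of 8 neighbour windows were lower and 0 higher, beside the 61.2% of all windows. For OCT4, 4 of 8, 3 of 6, 4 of 7, 4 of 7 and 3 of 6 of the same lists were higher, beside the 57.5% of all windows, and nothing particular to these lists is read from the counts.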

How the data were processed

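ChIP-seq had been performed with 16 antibodies, 64 libraries with peak lists in all, and 7 antibodies (28 lists) were compared here. The 8 input samples have no list here. Per the labels and the study's methods, the authors trimmed reads with cutadapt 1.16, mapped them to mm9 with BWA, marked duplicates, discarded reads from blacklisted regions and ran MACS2 library by library for narrow peaks, version 2.1.1.20160309. The deposited lists give, for each peak, the fold enrichment over the local background, a ratio, and the −log10 of its p-value and of its q-value (lowest −log10 q of the lists compared, 2.0). The study's test needs read counts and could not be run.

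Members, lists and comparisons were chosen with earlier results of these data known. Windows were gene bodies with 5 kb flanks. For each antibody, log2(covered bp + 100) was tested in all windows with a peak in at least 2 of 4 libraries, and log2 fold enrichment at sites (peaks merged where they overlap by 1 bp) called in all 4, with limma 3.58.1 in R 4.3.3 (trend, two-sided, Benjamini-Hochberg, threshold 0.05, genotype only). The p-values measure the spread between 2 libraries a genotype. The titles of the input samples carry no replicate number, and the input behind each list is not given here. Where lists of a genotype shared an input, that spread leaves out how inputs vary. Any member could be named. Those past the threshold (at most 10, largest change first), the strongest site by mean −log10 q in each cluster, up to 6 WT-only and 6 DKO-only sites and the strongest CTCF site with a core in each cluster were named by rule. Windows given for contrast, other sites past the threshold and sites shared by OCT4 and NANOG were chosen after their values were seen. Depth is unknown for CTCF and NANOG. For 5 antibodies, the deposited fold and −log10 p-value were solved for whole-number pileups (tolerance 0.0005), which gave the lowest background in reads per position. Lists of replicates shared at most 0.377% of intervals, so they were not copies of each other. Each counted as a sample because the libraries are described as biological replicates, which this check cannot test. Scripts were tested on simulated data. Replicate numbers did not pair libraries.

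Alternatives were another pseudocount (1000 bp), number of peaks, a peak in at least 1 library, −log10 q of at least 4, equal numbers of top peaks, 1 kb flanks, summits within 250 bp, centring on the median, a replicate block, each library left out and, chosen after seeing the data, thinning to the lowest background. Sequences and motifs were read from the NCBIM37 (mm9) reference, in which 21 of 21 chromosome names were found. Of 1156918 peaks 1 ended past a chromosome end, outside the Hox clusters. Some genes and the results that need them are not reported here.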

Additional observations from a re-analysis of the deposited data

Results flagged for a closer look

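Peaks in the Hox windows were also present in lists that no comparison above used. SOX2, a partner of OCT4 in ESCs, had 2 and 1 peaks in the 4 clusters in WT and 4 and 5 in DKO, from whole lists of 10324 and 10222 peaks in WT and 16174 and 17144 in DKO. The site 3929 bp upstream of Hoxb13 was called in all 4 SOX2 libraries (fold enrichment of 8.17 and 8.99 in WT, 8.30 and 6.81 in DKO), on the same DNA as the OCT4 and NANOG sites described above. SOX2 sites upstream of Hoxd12 (6.26 and 5.20), Hoxc12 (4.92 and 4.49) and Hoxb4 (5.93 and 5.12) were called in both DKO and in neither WT library.

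CEBPB, a leucine zipper factor in MEFs, had 5 and 3 peaks in WT and 2 and 2 in DKO, from whole lists of 14197 and 14692 peaks in WT and 4886 and 5328 in DKO. At the start of Hoxa5 its fold enrichment was 12.8 and 10.4 in WT and 5.16 and 5.01 in DKO. The site 262 bp upstream of Hoxb9 was called in WT alone (11.8 and 11.4). These differences were not tested.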

How the results depend on the processing

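Of the values that summarise a comparison, 267 stayed within the limits set for them under the alternatives, 55 moved and 6 reversed. By number of peaks, members called became 0 for H3K27ac (5 by covered length), with Hoxa9 (log2 change 0.19) and Hoxc9 (0.27) reversed, and 9 for Brd3 (25 by covered length). Centring left 0 Brd3 windows, 0 Brd3 shared sites and 0 OCT4 shared sites past the threshold. With 1 kb flanks 3 of the 5 named H3K27ac windows kept their call (Hoxc11 and Hoxc9 lost it) and 5 OCT4 windows were called, and with −log10 q of at least 4 there were 3 OCT4 DKO-only sites.

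With the same number of top peaks in each library, the total coverage of the clusters reversed for H3K27me3 (log2 change 0.83), p300 (1.55), OCT4 (-0.19) and NANOG (-0.14), Brd3 WT-only sites became 0 and DKO-only sites 1, p300 DKO-only sites 1, OCT4 DKO-only sites 0 and NANOG WT-only sites 2. With summits within 250 bp, H3K27ac WT-only sites became 17 and DKO-only sites 13, and Brd3 DKO-only sites 2. The cause of these shifts was not tested.

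With 1 library left out, windows called ranged from 2 to 5 for H3K27ac, 0 to 27 for Brd3 and 0 to 10 for OCT4, and shared sites past the threshold from 3 to 5 for H3K27ac, 1 to 3 for Brd3 and 2 to 6 for NANOG. WT-only sites ranged from 13 to 27 for H3K27ac, 0 to 10 for H3K27me3, 46 to 97 for Brd3, 0 to 2 for p300, 0 to 1 for CTCF, 0 to 1 for OCT4 and 0 to 4 for NANOG. DKO-only sites ranged from 5 to 8 for H3K27ac, 0 to 4 for H3K27me3, 0 to 1 for Brd3, 0 to 1 for CTCF, 5 to 16 for OCT4 and 0 to 4 for NANOG. The NANOG total ranged from a log2 change of -0.033 to 0.27 and reversed without WT replicate 1 (-0.02) and without DKO replicate 1 (-0.033). Where 1 library was left in a genotype, it was assumed to vary like the others.

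The replicate numbers did not pair the libraries, since the deviations of same-numbered libraries correlated at -0.0239 to 0.0452. With the replicate block, windows called were 4 for H3K27ac (3 of the 5 named ones, without Hoxa9 and Hoxc9), 26 for Brd3, 9 for OCT4 and 0 for the others, and shared sites 9 for H3K27ac, 6 for Brd3, 15 for CTCF, 2 for OCT4 and 7 for NANOG. Depth is unknown for CTCF and NANOG.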

Other observations

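KLF4, another factor of ESCs, had a peak in the Hoxd3 intron in every library (fold enrichment of 7.84 and 7.41 in WT and 6.79 and 6.43 in DKO) at chr2:74551703-74551933, inside the strongest NANOG site of the clusters. In HoxC it had 0 and 0 peaks in WT and 2 and 1 in DKO. Histone H1 in MEFs and the 5 B cell factors (ETS1, IKAROS, IRF8, OCT2 and PAX5) had 0 peaks in the Hox windows in any library, from lists of 281 to 315 peaks for H1 and of 10 (an OCT2 library of DKO) to 10969 (an IKAROS library of WT) for the B cell factors.

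A stretch of the Hoxd3 intron carried higher values in DKO in both cell types. In MEFs the H3K27ac site chr2:74553551-74553928 was higher in DKO, and in ESCs the CTCF site that overlaps it (chr2:74553769-74554466) was the one with the largest rise among the 26 shared Hox CTCF sites, a pairing noticed after the values were seen.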
